A study of Homo sapiens with 6 samples.

Results

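The genes described here encode the enzymes that add or remove methyl groups on histones and DNA, together with the histone deacetylases that contain zinc. The list was set by symbol, with earlier results of these data known. It took every gene of the count table named KMT2, KMT5, KDM, SETD, HDAC, PRMT, SUV39H or DNMT followed by a member code. EZH1, EZH2, EHMT1, EHMT2, DOT1L, NSD1, TET1, TET2 and TET3 were added. After 8 pseudogene names and 4 antisense names were left out, 73 of the 54261 symbols in the table were members. Of these, 67 held enough counts to be tested. The other 6 are accounted for under their families.

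The samples were 6 total-RNA libraries of T24, an established human bladder carcinoma line, grown in high-glucose medium with serum. All 6 came from cells infected with a lentivirus that carries the green fluorescent protein ZsGreen and a puromycin resistance gene, and selected with puromycin. The 3 control libraries carried the NC vector, whose label names no hairpin, and the 3 knockdown libraries carried the hairpin labelled shRNA2 against MTHFD2. The labels mention other hairpins against MTHFD2, but the libraries hold this hairpin only, and whether the selected cells were a pool or a clone is not given. The series text speaks of a knockout, whereas the sample labels name a hairpin. Total counts per library ran from 17801990 to 19978392, and 3 counts corresponded to 0.149 to 0.171 CPM (counts scaled to the library total). Nothing in the labels says that replicates came from separate infections, so p-values measure the spread between these libraries only.

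MTHFD2 is a mitochondrial enzyme of folate-dependent one-carbon metabolism. Its level was 185, 188 and 181.5 CPM in the controls and 26.75, 33.6 and 36.75 CPM in the knockdown libraries, after scaling of the libraries to each other. The knockdown level was lower by 2.51 on the log2 scale (log2 fold change -2.51, SE 0.13, edgeR adjusted p = 1.8e-06), which matches the labels.

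Histone and DNA methyltransferases take their methyl group from S-adenosylmethionine, which is made from methionine, and one-carbon metabolism can feed methionine synthesis. Methylation of H3K4 is typical of active promoters and enhancers, H3K36 and H3K79 methylation of transcribed genes, and H3K9, H3K27 and H4K20 methylation of silenced or compacted chromatin. Demethylases of the KDM2 to KDM8 groups and the TET enzymes use oxygen, iron and 2-oxoglutarate, whereas KDM1A and KDM1B use a flavin. Histone deacetylases remove the acetyl groups that acetyltransferases place on lysines. Class I enzymes act in stable nuclear complexes, and class IIa enzymes have weak catalytic activity and move between nucleus and cytoplasm.

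Across the 67 tested members, 5 rose with the knockdown (HDAC5, KDM5B, KDM7A, TET1 and KDM3A) and 2 fell (HDAC7 and PRMT5). These 7 are 10.4% of the tested members, against 17.3% of all 13896 genes tested (9.71% higher and 7.58% lower) by edgeR's quasi-likelihood test with a Benjamini-Hochberg adjusted p under 0.05. The members' share was below that of all genes. The 5 that rose comprise KDM5B and TET1, each the least abundant tested gene of its family per kb, KDM3A, a class IIa deacetylase and the H3K9 and H3K27 demethylase KDM7A. No gene of the DNA methyltransferase family and none of the lysine methyltransferases passed in this fit. Some of them did in alternative fits, which are given at the end except for the fit with knockdown replicate 2 alone. The median log2 fold change was 0.03 over the members and 0.01 over all tested genes, with 37 members above 0 and 30 below. Only KDM7A and TET1 changed by 1 or more on the log2 scale.

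The 60 members that did not pass all had an estimated log2 fold change of less than 0.5 in size, and SETDB2 had the largest at 0.46. The standard errors of the members ran from 0.09 to 0.23 with a median of 0.13, so small differences would not be detected at this number of libraries. Of the 60, 10 had an unadjusted edgeR p under 0.05: HDAC2, KDM1B, KDM2B, KDM4B, KDM5A, SETDB2 and TET2 with higher estimates, and KMT5A, PRMT1 and SUV39H1 with lower ones. In all, 17 of the 67 were under that p, against 33.4% of all genes. DESeq2 called the same 7 members and added KDM1B (higher) and PRMT1 (lower), against 18.7% of all genes by DESeq2.
The 3 knockdown libraries did not overlap the 3 controls in 20 members (29.9%), against 39.1% of all genes. Of the 20, 13 were higher and 7 lower (20.1% and 19% of all genes), and 13 were not among the 7 calls.

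**Figure D1:**
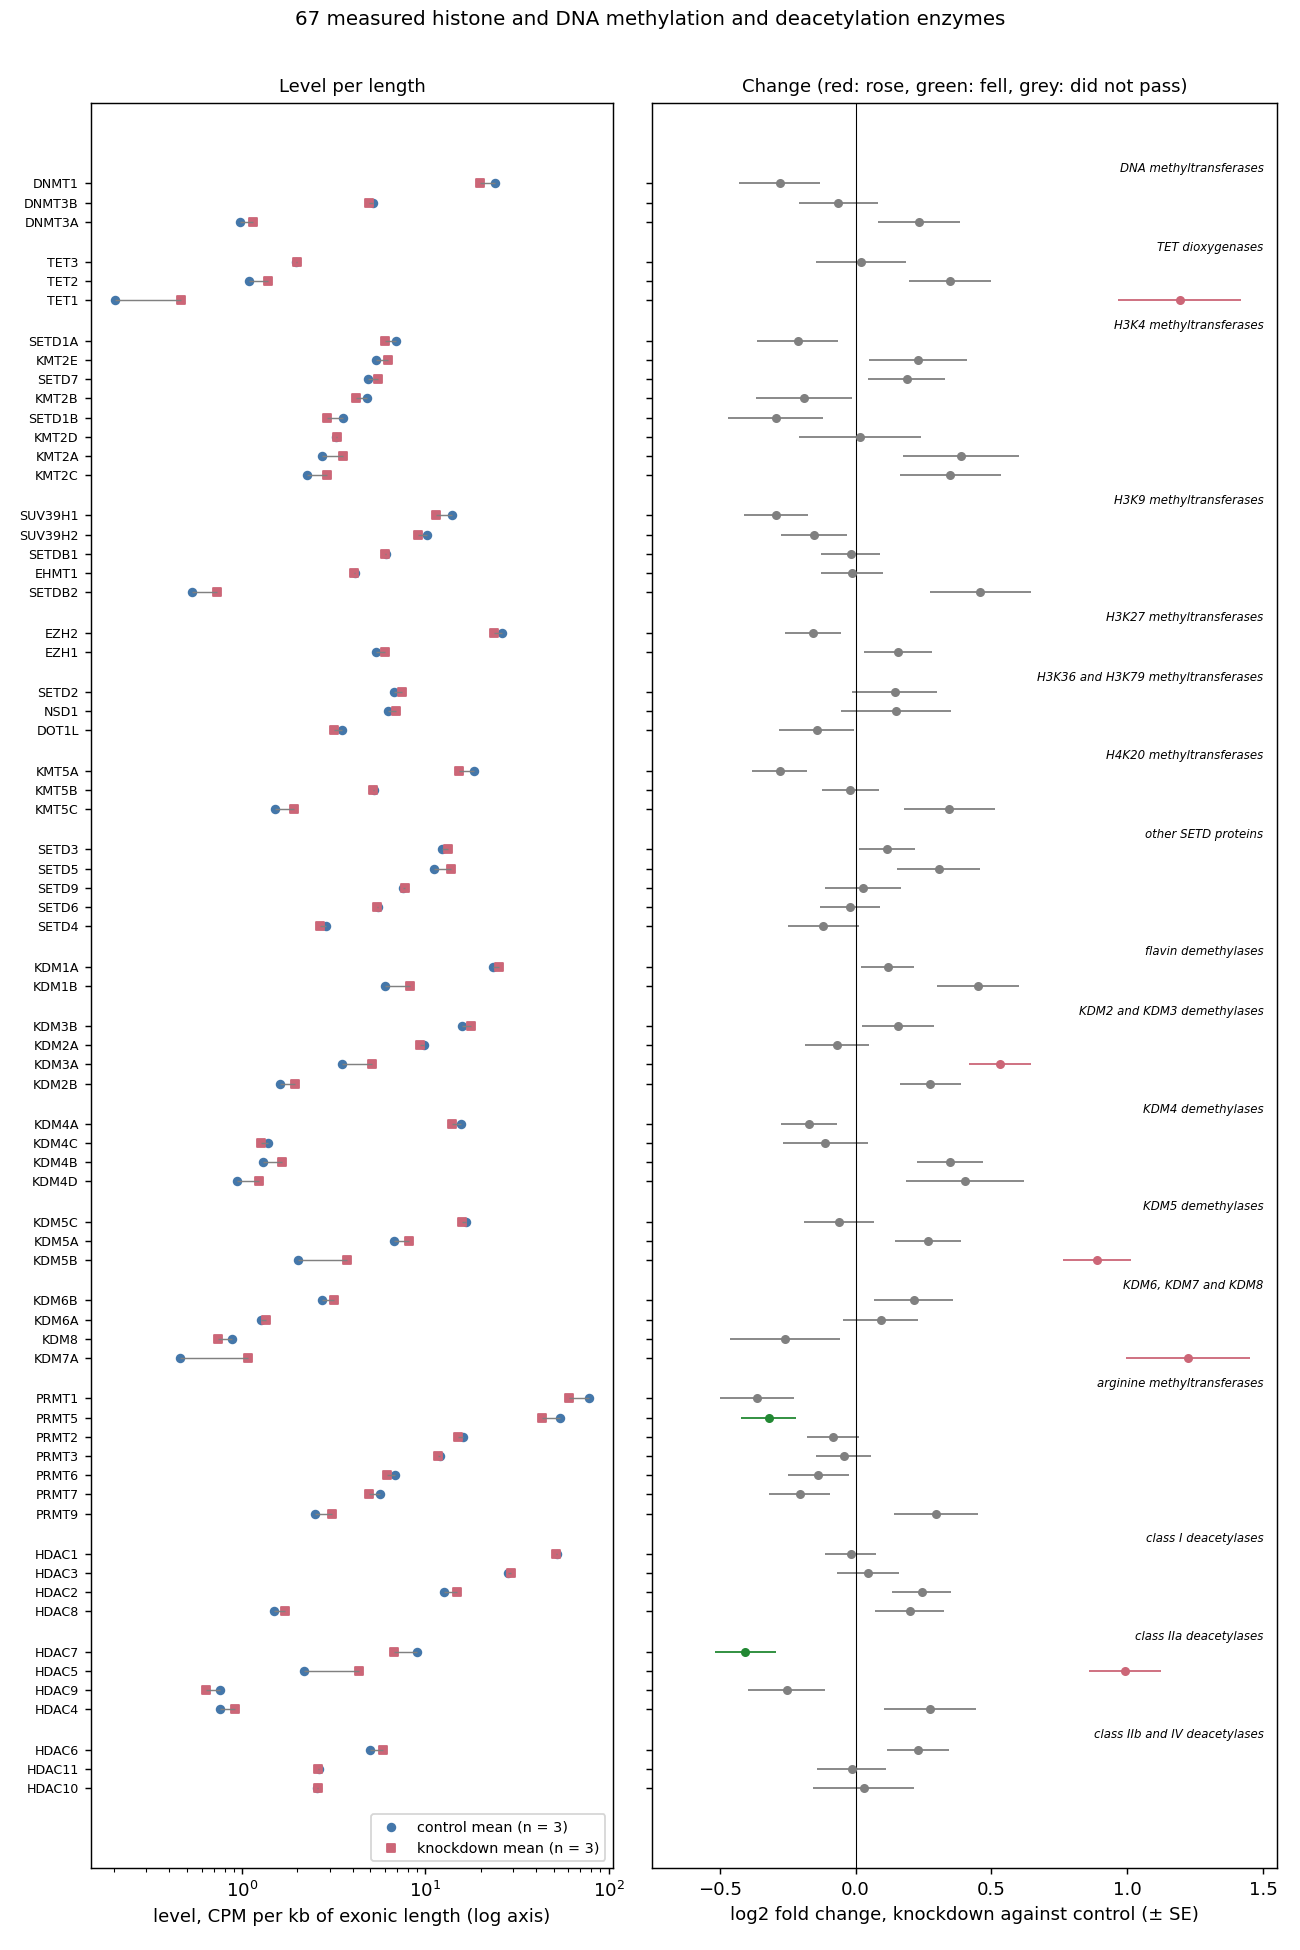
Mean level per kilobase of exon in control and knockdown libraries (left, CPM per kb, log axis, n = 3 each) and log2 fold change with its standard error (right) for the 67 tested members, grouped by role. Levels span PRMT1 at 78.0 to TET1 at 0.202 CPM per kb in controls, and 7 fold changes are coloured as having passed the test.

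Upstream sequences are shown for KDM7A and TET1, the members with the largest rises, as examples of how differently rich in CG dinucleotides, the sites of action of DNA methyltransferases and TET enzymes, the starts of these genes are. Sequences are from RefSeq on GRCh38.p14, read 5′ to 3′ on the strand of the gene and ending at or before the base that precedes the RefSeq start; capitals mark CG. The KDM7A stretch is chr7:140177036-140177133 on the minus strand, cut short where an annotated exon begins, and the TET1 stretch is chr10:68560187-68560336 on the plus strand.
KDM7A: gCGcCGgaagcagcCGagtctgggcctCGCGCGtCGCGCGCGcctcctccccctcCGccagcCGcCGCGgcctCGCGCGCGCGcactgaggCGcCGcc
TET1: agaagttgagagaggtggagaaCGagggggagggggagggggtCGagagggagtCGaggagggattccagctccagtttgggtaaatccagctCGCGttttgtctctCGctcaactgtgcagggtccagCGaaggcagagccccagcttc
The KDM7A stretch holds 21 CG in 98 bases and the TET1 stretch 7 in 150 bases. Windows of 150 bases were taken before the first start that RefSeq lists for each gene, which can lie inside the longer GENCODE 29 gene whose span is given below. The median number of CG was 15 for the 68 members with such a window, HDAC5 not among them, and 7 for all 27305 gene windows. KDM7A had 30 in that window, KDM5B 21, KDM3A 12, and HDAC7 and PRMT5 9 each. Exons of GENCODE 29 transcripts cover all 150 bases of the KDM5B, KDM3A and PRMT5 windows, 77 of HDAC7 and 52 of KDM7A, and none of TET1. The letters GGGCGG, the GC box, searched on both strands, were in 41 of the 68 member windows (60.3%) and in 36.7% of all windows. CCAAT was in 19 (27.9%) against 24.4%, and the E-box CACGTG in 9 (13.2%) against 4.68%. In windows that are thus exonic for some transcripts, KDM3A held 2 CCAAT and 2 GGGCGG, PRMT5 2 CCAAT and KDM5B 1 GGGCGG. The windows of KDM7A, TET1 and HDAC7 held none of the 3 motifs. Other motifs searched were rare. The ATF4 composite TGATGNAA (N for any base) was in 0 member windows against 1.93% of all windows. The FOXO letters GTAAACA were in 1 (1.47%) against 1.68%, and the CRE letters TGACGTCA in 1 (1.47%) against 1.51%. The windows of all genes were not matched to the members for CG content or gene type. SETDB2 and SETDB2-PHF11 have the same window, which is counted for both. These matches describe letters only, and the libraries carry no measurement of binding or methylation.

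Among the demethylases, KDM5B rose. It removes methyl groups from H3K4 and lies on chromosome 1 at 202724495 to 202809470, minus strand, in GRCh38. Its level was 54.2, 53.8 and 49.3 CPM in the controls and 86.75, 115.5 and 89.1 CPM in the knockdown libraries. Each knockdown library was above each control, and knockdown replicate 2 was highest. The mean went from 52.4 ± 2.73 to 97.1 ± 15.95 CPM (SD, n = 3 each), a log2 fold change of 0.89 (SE 0.12, edgeR adjusted p = 0.00122). With the trends on GC content and exon length removed, the log2 fold change was 0.65 and remained past the threshold. KDM5A, the second H3K4 demethylase of the family, measured 83.1, 87.0 and 75.5 CPM in controls and 93.7, 115 and 86.7 CPM in knockdown libraries. Its groups overlapped, as the third knockdown library lay just under the second control, and it did not pass (log2 fold change 0.27, adjusted p = 0.146 by edgeR). KDM5C, the most abundant of the family, was at 147, 148 and 140 CPM in controls and 154, 153 and 109 CPM with the knockdown, with overlapping groups. KDM5D had 1 count at most and was not tested.

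Within the KDM5 family the share held by KDM5B, in CPM per kb, was 7.98% ± 0.123 in the controls and 13.6% ± 1.70 in the knockdown libraries. KDM5C went from 65.4% ± 0.865 to 57.05% ± 3.84. The shares of families were computed after the members' values were seen and sum to 100%, so they restate the members' levels and carry no test here. The level of KDM5C itself did not pass (log2 fold change -0.06, edgeR adjusted p = 0.777). As a ratio of counts within each library, KDM5A stood at 1.53, 1.62 and 1.53 times KDM5B in the controls and at 1.08, 0.997 and 0.972 times in the knockdown libraries. The 2 genes were thus of near equal count in every knockdown library and unequal in every control.

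KDM7A, which removes methyl groups from H3K9 and H3K27, lies on chromosome 7 at 140084746 to 140177035, minus strand. It measured 4.96, 4.52 and 3.505 CPM in controls and 8.25, 13.7 and 8.30 CPM with the knockdown. All knockdown libraries were above all controls, and replicate 2 stood well above the other two. On the log2 scale it rose by 1.22 (SE 0.23, adjusted p = 0.00518 by edgeR), from a mean of 4.33 ± 0.746 to 10.1 ± 3.14 CPM (SD, n = 3 each). The H3K27 demethylases KDM6A and KDM6B did not pass, with log2 fold changes of 0.09 and 0.21, nor did KDM8 at -0.26. In the summed level per kb of KDM6A, KDM6B and KDM7A, the part of KDM7A was 10.3% ± 1.14 in controls and 18.95% ± 3.12 with the knockdown.

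KDM3A, an H3K9 demethylase, lies on chromosome 2 at 86440647 to 86492716, plus strand. It measured 47.6, 49.4 and 44.8 CPM in controls and 66.7, 77.4 and 61.0 CPM with the knockdown, with no overlap. The mean rose from 47.3 ± 2.32 to 68.4 ± 8.36 CPM (SD, n = 3 each; log2 fold change 0.53, SE 0.11, edgeR adjusted p = 0.0102). Without control replicate 1 the adjusted p was 0.0502, and with GC and length trends removed the log2 fold change was 0.34 and still called. KDM3B, the more abundant H3K9 demethylase of this pair, measured 135, 135 and 109 CPM in controls and 142, 162 and 118 CPM with the knockdown, and its groups overlapped. The count ratio of KDM3A to KDM3B was 0.353, 0.366 and 0.412 in controls and 0.471, 0.477 and 0.5175 in knockdown libraries.

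The other demethylases did not pass. KDM1A, the flavin enzyme that removes methyl groups from H3K4, was at 120.5, 125.5 and 135 CPM in controls and 133, 134 and 146 CPM with the knockdown (log2 fold change 0.12, SE 0.10, edgeR adjusted p = 0.418). Its groups overlapped narrowly. KDM1B, the other flavin enzyme, was at 36.1, 37.1 and 27.8 CPM in controls and 40.6, 55.9 and 41.5 CPM with the knockdown, all knockdown libraries being higher (log2 fold change 0.45, SE 0.15, edgeR adjusted p = 0.0612). KDM2A and KDM2B, H3K36 demethylases, had log2 fold changes of -0.07 and 0.28. Of the KDM4 enzymes, which act on H3K9 and H3K36, KDM4A was the most abundant. It was at 77.2, 87.0 and 79.35 CPM in controls and 74.2, 74.8 and 67.2 CPM with the knockdown, lower without overlap but not past the threshold (log2 fold change -0.17, SE 0.10, edgeR adjusted p = 0.256). KDM4B had a log2 fold change of 0.35 (edgeR adjusted p = 0.0696), KDM4C of -0.11 and KDM4D of 0.40, and KDM4E had no count in any library.

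TET enzymes oxidise 5-methylcytosine and so open the way to its removal. TET1 lies on chromosome 10 at 68560656 to 68694482, plus strand, and had the lowest level per kb of all tested members in the controls. Its counts were 39, 31 and 34 in controls and 81, 98 and 73 with the knockdown, or 2.22, 1.61 and 1.81 CPM against 4.03, 4.94 and 3.91 CPM. No knockdown library overlapped a control. It rose by 1.19 on the log2 scale (SE 0.23, adjusted p = 0.0055 by edgeR), from 1.88 ± 0.312 to 4.29 ± 0.564 CPM (SD, n = 3 each). TET2 was at 18.6, 18.8 and 16.1 CPM in controls and 22.1, 27.4 and 18.6 CPM with the knockdown (log2 fold change 0.35, SE 0.15, edgeR adjusted p = 0.128). TET3, at 27.5, 25.7 and 19.2 CPM against 25.4, 28.4 and 19.55 CPM, had a log2 fold change of 0.02. The groups of TET3 overlapped fully. TET1 made up 6.28% ± 1.06 of the summed TET level per kb in controls and 12.2% ± 1.103 with the knockdown, while TET3 went from 60.2% ± 2.69 to 52.0% ± 1.67. The count ratio of TET1 to TET3 was 0.0807, 0.0627 and 0.0942 in controls and 0.1585, 0.174 and 0.2 in knockdown libraries.

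**Figure D2:**
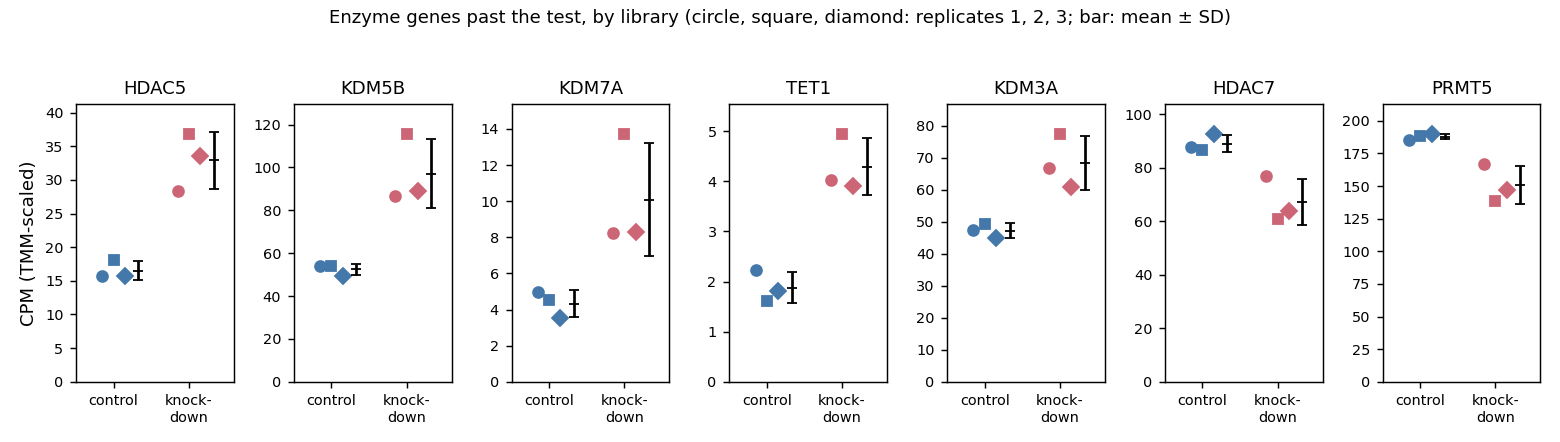
Level of the 7 members that passed the test in each library (CPM after TMM scaling, linear axes from 0, circle, square and diamond for replicates 1, 2 and 3, bar for the mean and SD, n = 3 each). In all 7 panels the groups do not overlap, and knockdown replicate 2 (square) is the knockdown library farthest from the controls.

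DNA methyltransferases did not pass in the main edgeR fit, and 0 of the 3 tested had an unadjusted p under 0.05 there or were called by DESeq2. DNMT1, which copies methylation to the new strand after replication, was at 250.1, 237 and 221 CPM in controls and 232, 206 and 145 CPM with the knockdown (log2 fold change -0.28, SE 0.15, edgeR adjusted p = 0.207). Knockdown replicate 3 was the lowest library, and replicate 1 lay among the controls. The enzymes that set new methylation, DNMT3A and DNMT3B, had log2 fold changes of 0.23 and -0.06, and their partner without catalytic activity, DNMT3L, had no count in any library.

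The genes grouped here by name as H3K4 methyltransferases did not pass either. Of these 8, 0 had an unadjusted edgeR p under 0.05 or were called by DESeq2. SETD1A, the most abundant per kb, was at 50.5, 45.2 and 46.6 CPM in controls and 49.2, 42.04 and 31.4 CPM with the knockdown (log2 fold change -0.21, SE 0.15, edgeR adjusted p = 0.333). The groups overlapped. KMT2A was at 89.5, 96.45 and 70.0 CPM in controls and 106, 155 and 74.5 CPM with the knockdown, and KMT2D at 71.7, 72.0 and 55.5 CPM against 71.1, 89.8 and 40.2 CPM. For both, the knockdown libraries differed among themselves by more than the groups did. KMT2C had a log2 fold change of 0.35, KMT2E of 0.23, SETD7 of 0.19, KMT2B of -0.19 and SETD1B of -0.29.

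Among H3K9 methyltransferases, SUV39H1 was at 42.6, 49.8 and 49.1 CPM in controls and 43.25, 35.3 and 36.8 CPM with the knockdown (log2 fold change -0.29, SE 0.12, edgeR adjusted p = 0.106). Knockdown replicate 1 overlapped the controls, and the other two knockdown libraries lay below them. SUV39H2, EHMT1 and SETDB1 had log2 fold changes of -0.15, -0.01 and -0.02, and SETDB2 of 0.46 (SE 0.19, edgeR adjusted p = 0.108). EHMT2, which forms a heterodimer with EHMT1, is listed at 0 counts in all 6 libraries. It lies on chromosome 6 at 31879759 to 31897687 in the major histocompatibility region. Of the 66 coding genes within 500 kb on either side, 52 (78.8%) were at 0 in all libraries, 13 had under 50 counts in total and 1 had more, whereas 20.4% of all 18801 coding genes in the table were at 0. The 0 for EHMT2 is therefore given as a listing, not as a level.

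EZH2, the catalytic subunit of Polycomb repressive complex 2 that methylates H3K27, was at 121, 117 and 118 CPM in controls and 117, 96.8 and 106 CPM with the knockdown (log2 fold change -0.16, SE 0.10, edgeR adjusted p = 0.306). The groups overlapped by one knockdown library. EZH1 had a log2 fold change of 0.16. SETD2, which places trimethylation on H3K36, was at 72.7, 72.2 and 58.4 CPM against 81.3, 87.3 and 55.8 CPM, and NSD1, which places dimethylation there, at 101, 107 and 81.2 CPM against 111.5, 140 and 69.4 CPM. Both overlapped. DOT1L, the H3K79 enzyme, had a log2 fold change of -0.14. KMT5A, which places monomethylation on H4K20, was at 84.9, 82.1 and 85.7 CPM in controls and 76.2, 66.99 and 65.0 CPM with the knockdown, lower without overlap but above the threshold (log2 fold change -0.28, SE 0.10, edgeR adjusted p = 0.0804). KMT5B and KMT5C, which add further methyl groups there, had log2 fold changes of -0.02 and 0.34. SETD3, which methylates actin, was at 58.0, 65.6 and 66.8 CPM against 65.6, 68.2 and 72.3 CPM. SETD4, SETD5, SETD6 and SETD9 had log2 fold changes of -0.12, 0.31, -0.02 and 0.03, and the read-through name SETDB2-PHF11 had 2 counts at most.

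PRMT5, which makes symmetric dimethylarginine on histones and splicing proteins, fell. It lies on chromosome 14 at 22920511 to 22929585, minus strand, and was the second most abundant member per kb in controls at 54.2 ± 0.649 CPM per kb. It was at 185.5, 189 and 190 CPM in controls and 167, 138 and 147 CPM with the knockdown, with no overlap. On the log2 scale it fell by 0.32 (SE 0.10, adjusted p = 0.0481 by edgeR), from 188 ± 2.25 to 151 ± 14.6 CPM (SD, n = 3 each). The call was kept in 1 of the 6 fits with a library left out, that without knockdown replicate 1, and the adjusted p was 0.138, 0.123 and 0.135 without control replicates 1, 2 and 3 and 0.143 and 0.0609 without knockdown replicates 2 and 3. It was also lost without a filter on low counts, where 12% of all genes were called. Its antisense partner PRMT5-AS1 had 1 count in all.

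PRMT1, which makes most asymmetric dimethylarginine and was the most abundant member at 78.0 ± 10.6 CPM per kb in controls, was at 348, 341 and 432 CPM in controls and 340, 245 and 288 CPM with the knockdown. The highest knockdown library lay just below the lowest control, and the gene did not pass (log2 fold change -0.36, SE 0.14, edgeR adjusted p = 0.0879). PRMT2, PRMT3, PRMT6 and PRMT7 had log2 fold changes of -0.08, -0.04, -0.14 and -0.21, PRMT9 of 0.30, and PRMT8 had no count. The summed level of the arginine methyltransferases was 169, 168 and 188 CPM per kb in controls. With the knockdown it was 160.0, 131 and 144 CPM per kb, lower in every knockdown library than in any control. PRMT1 and PRMT5 hold most of that sum. Family sums were computed after the members' values were seen, and the exact two-sided permutation p here was 0.1, the smallest possible. Of the other family sums, only that of KDM6A, KDM6B and KDM7A did not overlap between groups. It was higher with the knockdown.

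HDAC5, a class IIa deacetylase that binds MEF2 transcription factors, rose. It lies on chromosome 17 at 44076746 to 44123702, minus strand, and had counts of 275, 349 and 297 in controls and 571, 730 and 625 with the knockdown. These are 15.7, 18.15 and 15.8 CPM in controls and 28.4, 36.8 and 33.5 CPM with the knockdown. The lowest knockdown library was well above the highest control. The mean went from 16.5 ± 1.40 to 32.9 ± 4.24 CPM (SD, n = 3 each), a log2 fold change of 0.99 (SE 0.13, edgeR adjusted p = 0.000861), the lowest p among the members.

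HDAC7, another class IIa deacetylase, fell. It lies on chromosome 12 at 47782722 to 47833132, minus strand, and was at 87.8, 86.7 and 92.6 CPM in controls and 76.9, 60.9 and 64.0 CPM with the knockdown. There was no overlap, and knockdown replicate 1 was nearest the controls. It fell by 0.40 on the log2 scale (SE 0.11, adjusted p = 0.0291 by edgeR), from 89.0 ± 3.15 to 67.3 ± 8.46 CPM (SD, n = 3 each). The call was kept in 2 of 6 fits with a library left out, and the adjusted p was 0.0899, 0.0618 and 0.103 without control replicates 1, 2 and 3 and 0.0806 without knockdown replicate 2. Its locus overlaps SLC48A1 on the opposite strand, which had 3465 to 3993 counts per library. No source used here says whether the counting used the strand, so reads of the overlap cannot be assigned.

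The summed level of the 4 class IIa genes was 12.65 ± 0.117 CPM per kb in controls and 12.64 ± 0.510 CPM per kb with the knockdown (SD, n = 3 each), with different makeup. HDAC7 held 70.5%, 69.1% and 73.1% of the sum in controls and 59.0%, 48.4% and 53.2% with the knockdown. HDAC5 held 16.4%, 18.8% and 16.2% in controls and 28.4%, 38.1% and 36.3% with the knockdown. The groups did not overlap for either share. HDAC4, a close paralog of HDAC5, was at 11.5, 10.0 and 8.71 CPM in controls and 13.0, 13.8 and 9.75 CPM with the knockdown, overlapping (log2 fold change 0.27, edgeR adjusted p = 0.272). HDAC9 had a log2 fold change of -0.25 (edgeR adjusted p = 0.228).

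**Figure D3:**
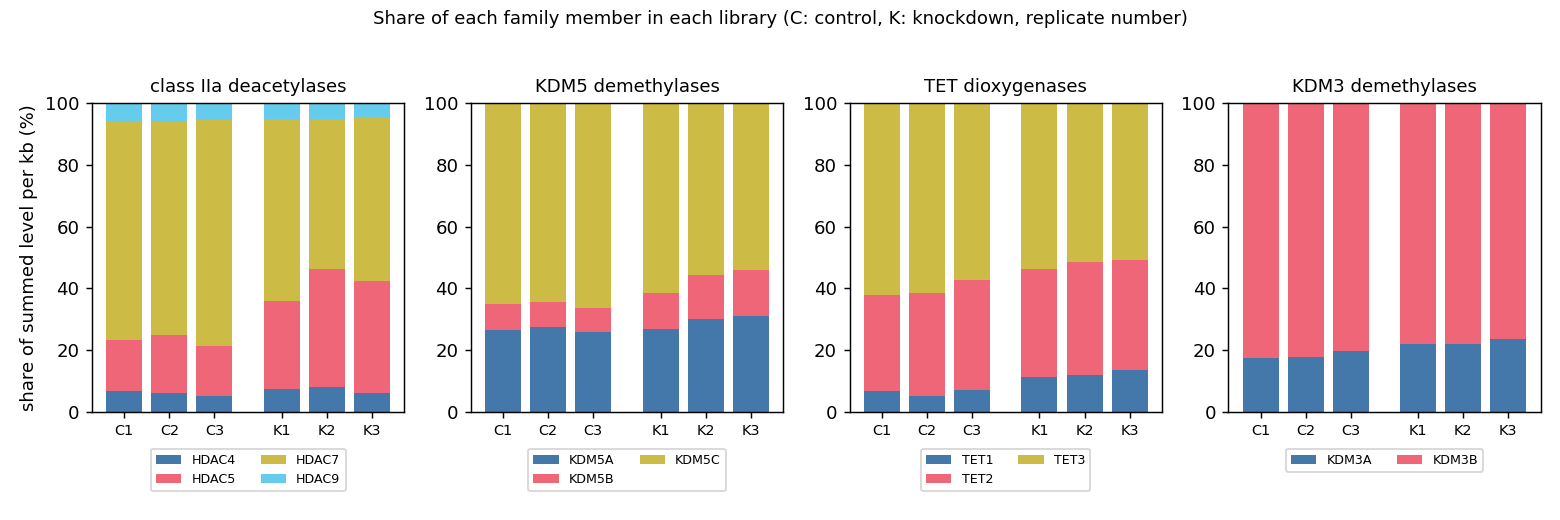
Share of each gene in the summed level of its family (percent of CPM per kb, axis from 0 to 100) in each control (C1 to C3) and knockdown (K1 to K3) library, for class IIa deacetylases and the KDM5, TET and KDM3 families. HDAC5, KDM5B, TET1 and KDM3A hold a larger share in every knockdown library than in any control.

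Class I deacetylases did not pass by edgeR, none of the 4 was called by DESeq2, and HDAC2 alone had an unadjusted p under 0.05. HDAC1, the most abundant deacetylase at 51.9 ± 2.90 CPM per kb in controls, was at 199, 199 and 219 CPM in controls and 200.1, 203 and 207 CPM with the knockdown (log2 fold change -0.02, SE 0.09, edgeR adjusted p = 0.92). HDAC2, its partner in the same complexes, was at 193, 189.5 and 200.5 CPM in controls and 212, 213.5 and 264 CPM with the knockdown, higher in each knockdown library (log2 fold change 0.24, SE 0.11, edgeR adjusted p = 0.141). HDAC3 and HDAC8 had log2 fold changes of 0.05 and 0.20. HDAC6, a cytoplasmic tubulin deacetylase, was at 51.0, 54.85 and 52.95 CPM against 68.0, 65.0 and 53.1 CPM (log2 fold change 0.23, SE 0.12, edgeR adjusted p = 0.184), with the third knockdown library among the controls. HDAC10 and HDAC11 had log2 fold changes of 0.03 and -0.01.

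Ratios within a library do not depend on the scaling between libraries. Of 29 paralog pairs listed, 27 had counts for both genes, and in 18 of these the log2 ratio did not overlap between groups. The share of non-overlapping ratios among pairs of other genes was not computed, and single genes gave 39.1%, so nothing is read from this count. The smallest exact two-sided permutation p is 0.1, and 0.15 after adjustment over the pairs, so no pair could pass. In 6 of the 18 pairs one gene had also passed the edgeR test. The log2 ratio of KDM5B to KDM5C went from -1.47 ± 0.034 in controls to -0.51 ± 0.28 with the knockdown (SD, n = 3 each), and that of KDM5A to KDM5B from 0.64 ± 0.045 to 0.02 ± 0.079. HDAC4 over HDAC5 went from -0.72 ± 0.24 to -1.44 ± 0.33, and KDM3A over KDM3B from -1.41 ± 0.12 to -1.035 ± 0.074. TET1 over TET2 went from -3.255 ± 0.26 to -2.39 ± 0.12, and TET1 over TET3 from -3.68 ± 0.30 to -2.50 ± 0.17. These pairs were picked for a called gene and for groups that do not overlap, so they restate the calls as ratios. The log2 ratio of HDAC7 to HDAC9, the other pair with a called gene, overlapped, at 2.81 ± 0.12 in controls and 2.66 ± 0.20 with the knockdown (exact two-sided permutation p = 0.4, n = 3 each).

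Many of these genes have a large exonic length, counted as the union of exons over all annotated transcripts. This union can be longer than any single transcript. Knockdown replicates 2 and 3 differed along this exonic length. Over the 67 members, the log2 ratio of replicate 2 to replicate 3 and the log2 exonic length had a Pearson r of 0.547 and a Spearman rho of 0.528. Over all 12553 genes with a length, r was 0.387 and rho 0.489, with the same sign as over the members. These correlations run across genes of 2 libraries and carry no p. The 18 members of 12 kb or more had a median log2 ratio of 0.42, and the 16 members under 5 kb one of -0.07. KMT2D had 1.16, KMT2A 1.05, NSD1 1.01 and KMT2C 0.78. HDAC2 and HDAC8, also long by annotation, were exceptions at -0.31 and -0.33. For control replicates 2 and 3 the Pearson r over the members was 0.3785. Removing trends on GC content and length together, where 24.3% of all genes were called, took the log2 fold change of KDM5B from 0.89 to 0.65 and that of KDM3A from 0.53 to 0.34. The part of length alone was not tested.

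**Figure D4:**
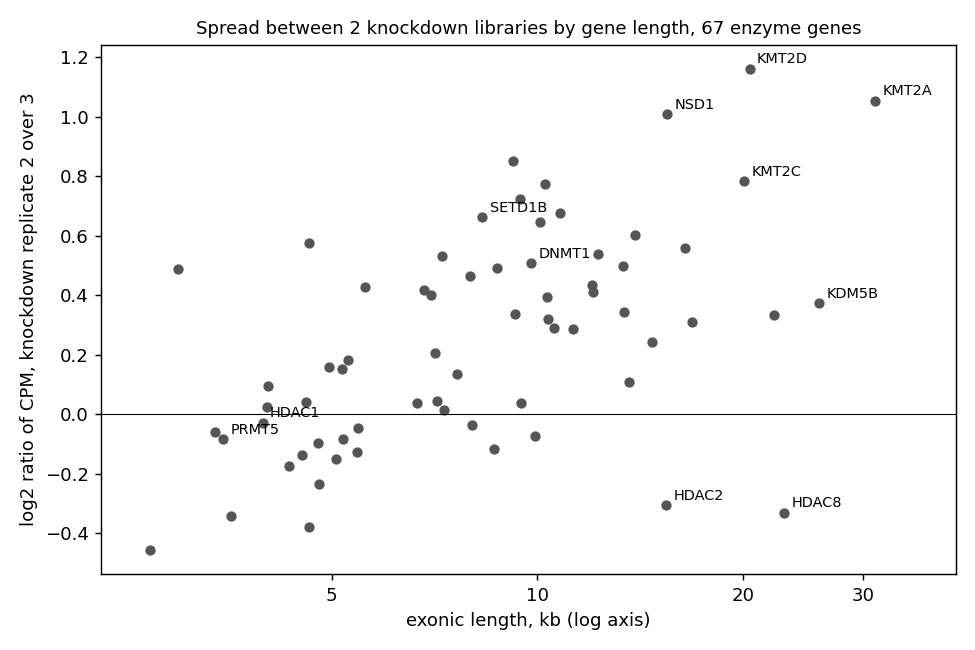
Log2 ratio of CPM between knockdown replicates 2 and 3 (vertical) against exonic length in kb (horizontal, log axis) for the 67 tested members, 1 point a gene. KMT2D, KMT2A and NSD1 lie above 1, and HDAC2 and HDAC8 lie below 0 at a large annotated exonic length (union of exons).

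The partners of these enzymes were read from the same fit. Of 32 members of deacetylase complexes, 3 rose and 3 fell, with a median log2 fold change of 0.15. RCOR2, a corepressor that binds KDM1A, had the largest rise among them, from 0.769 ± 0.131 to 1.96 ± 0.210 CPM (log2 fold change 1.34, SE 0.29, edgeR adjusted p = 0.0113), and BRMS1 and MBD3 fell, with log2 fold changes of -0.67 and -0.60. The other three called were MTA3 (0.45), ARID4A (0.49) and DNTTIP1 (-0.60). Of the 9 tested partners of Polycomb repressive complex 2, PHF19, which helps recruit that complex, fell from 186 ± 10.2 to 120 ± 15.3 CPM (SD, n = 3 each; log2 fold change -0.64, SE 0.11, edgeR adjusted p = 0.00393), and the list's median was 0.00.
Of the 13 partners of H3K4 methyltransferases, PSIP1 rose (0.37) and WDR5 fell (-0.39), with a median of -0.15. Of the 13 acetyltransferases, NCOA3 rose from 296 ± 38.35 to 467 ± 105 CPM (SD, n = 3 each; log2 fold change 0.65) and KAT5 fell (-0.36), with a median of 0.07. Of the 7 sirtuins, the deacetylases that use NAD, SIRT7 fell (-0.45), with a median of 0.17. Of the 9 partners of DNA methylation, ZBTB4, which binds methylated DNA, rose (0.43), with a median of -0.02.
Of the 16 other writers and erasers tested, JMJD6 fell (-0.52), with a median of -0.01. Of the 9 tested genes of S-adenosylmethionine supply and use, AHCYL2, a relative of the enzyme that clears S-adenosylhomocysteine, rose (0.52), with a median of -0.12. MAT2A of the same list did not pass (log2 fold change -0.33, edgeR adjusted p = 0.0857). DESeq2 called MAT2A lower (DESeq2 adjusted p = 0.0422). The other partners called by DESeq2 but not in the main edgeR fit were SMYD5, PAGR1 and UHRF1 (lower) and NCOA2 (higher). In all, 15 of the 108 partner genes tested were called (13.9%), against 17.3% of all genes. Only PHF19 was kept in all 6 fits with a library left out. Without control replicate 3 the called partners were PHF19, RCOR2 and MTA3, and without control replicate 1 they were PHF19, MBD3, BRMS1, DNTTIP1 and NCOA3. WDR5 and KAT5 were kept in 1 of the 6 fits, PSIP1 in 2, and ZBTB4 and AHCYL2 in 3.

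Markers of other cells were read beside these results. Of 9 fibroblast markers, 6 were tested and 4 were called higher (DCN, COL1A2, COL3A1 and COL1A1). Their summed level was 23 to 29.6 CPM in controls and 64.9, 45.6 and 58.6 CPM in knockdown replicates 1, 2 and 3. COL1A2 had 24, 32 and 28 counts in controls and 222, 31 and 160 in the knockdown libraries, so that replicate 2 was at the control level. The summed level in replicate 2 was still above every control, but FBN1, which was not called, made up 35.0 of its 45.6 CPM. FBN1 was at 20.6, 21.7 and 15.8 CPM in controls. DCN, COL3A1 and COL1A1 were also above every control in replicate 2, by less than in replicates 1 and 3. Replicate 2 was also the knockdown library farthest from the controls in all 7 called members. Marker differences thus remained in replicate 2, and the keratins KRT8 and KRT18 were lowest there, at 304 and 544 CPM. Values with that library alone cannot separate the enzymes' differences from the marker differences. With replicate 2 alone, in a fit that called 30% of all genes, 18 members were called higher and 5 lower. Summed leukocyte markers were at 0.584 to 1.88 CPM over both groups. Summed endothelial markers were at 2.07 to 3.02 CPM in controls and 1.13 to 1.71 CPM in knockdown libraries, with CDH5 called lower. Of the 6 markers of cultured urothelial carcinoma, KRT8 and KRT18 fell (log2 fold changes -1.27 and -0.89) and KRT7 was present, while KRT19, EPCAM and CDH1 had 11 counts or fewer in every library. The part of the keratin and collagen differences in the enzymes' results was not tested, and in these bulk libraries fewer cells of a type and less RNA per cell cannot be told apart. Of 10 proliferation markers, 0 were called by edgeR or DESeq2, 0 had an unadjusted p under 0.05 and the median log2 fold change was -0.05.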

How the data were processed

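The authors deposited gene counts of 6 RNA-seq libraries (3 control, 3 MTHFD2 knockdown) as whole numbers per gene symbol; HISAT2 2.0.4 and GRCh38 are named per the submitters' processing notes. The sources used here name no counting tool, gene annotation or strand setting. Total counts were 17801990 to 19978392 per library.

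Counts were fitted with edgeR 4.0.16 in R 4.3.3 (TMM scaling, filterByExpr, robust quasi-likelihood test, ~ group) over all 13896 genes that passed the filter, with Benjamini-Hochberg adjustment over all of them and a threshold of 0.05. CPM were computed with TMM-scaled library totals. Levels per kb use the union of exons in GENCODE 29, matched for 72 of 73 members. DESeq2 1.42.0 and the other alternatives are given at the end. The script was tested on simulated data. The members, role groups, partner lists, pairs and markers were chosen with earlier results of these data known. Individually described genes were those past the threshold, the most abundant member of each role without a call, up to 3 called members of each partner list and paralogs of non-overlapping pairs; others were chosen after their values were seen. In the partner lists, 6 genes were found under older symbols.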

Additional observations from a re-analysis of the deposited data

How the results depend on the processing

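The number of members that rose (5) became 14 with the replicate block (36.4% of all genes called), 9 with GC and length trends removed, 18 with knockdown replicate 2 alone and 4 to 12 with 1 library left out (12 without knockdown replicate 3). The number that fell (2) became 7 with the replicate block, 5 with knockdown replicate 2 alone, 0 at a threshold of 0.01 and 0 to 4 with 1 library left out (0 without any 1 control or without knockdown replicate 2, 1 without knockdown replicate 3). Over all genes, the 2402 calls became 5062 with the block, 4432 with knockdown replicate 2 alone, 749 at a threshold of 0.01 and 986 to 2645 with 1 library left out. The 15 called partner genes became 3 to 25. RLE scaling, DESeq2 and both changes of the low-count filter kept the counts of members within 1.5 times. HDAC5, KDM5B, KDM7A and TET1 were called in 14 of 14 alternatives, KDM3A in 12, HDAC7 in 9 and PRMT5 in 7. None of these 7 called members changed sign in any alternative. Some named members that did not pass changed sign. With GC and length trends removed, the log2 fold change of SETD2 went from 0.14 to -0.03 and that of HDAC1 from -0.02 to 0.03. The cause of the lost calls was not tested.

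The deviations of same-numbered libraries had correlations of -0.02, 0.297 and 0.353 for replicates 1, 2 and 3. The last 2 were the highest of all 9 pairs, while control replicate 1 correlated best with knockdown replicate 2 (0.165). The labels name no shared batch, and as replicate 1 did not correlate the block was kept as an alternative only. The block kept all 7 calls. Among its added calls were DNMT1, KMT5A, SETD1B and SUV39H1 (lower) and KMT2A, KMT2C and SETD5 (higher). KMT2A was also called higher without the low-count filter, and KMT5C with GC and length trends removed. Without knockdown replicate 3, KMT2A, KMT2E, SETD5 and SETD7 were called higher, and without knockdown replicate 1 KMT5A was called lower. With 3 libraries a group, a median SE of 0.13 limits what could be detected.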
